A study of Arabidopsis thaliana with 5 samples.

Results

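Thylakoid, chlorophyll and plastoglobule genes were followed in Arabidopsis thaliana seedlings during oxygen shortage. The 5 genes were PSAN (AT5G64040), LHCB4.1 (AT5G01530), LHCB4.3 (AT2G40100), PORB (AT4G27440) and FIB (AT4G04020). They were taken by gene name from earlier results of these arrays, and each was represented by 1 probe set, so that 5 of 8247 non-control probe sets, and 5 of 3592 named genes, are described. The hypoxic samples were whole seedlings of ecotype Col-0, bagged in plastic under a flow of 0.2% oxygen in 99.8% nitrogen for 30, 60 or 240 min. The air samples were Col-0 seedlings at ambient conditions, taken at 0 and 240 min. All seedlings had been raised on upright agar plates for 14 days, in 16 h days at 22 °C. Each treatment and time has 1 array, which gives 3 hypoxic arrays and 2 air arrays. The submitters describe the 5 samples as independent.

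In chloroplasts, photosystem I and photosystem II sit in the thylakoid membrane and are fed with light energy by antenna proteins that bind chlorophyll. Chlorophyll is made in the plastid by a chain of enzymes, several of which use molecular oxygen, and PORB catalyses a light-dependent step near its end. Plastoglobules are lipid droplets attached to the thylakoid, coated by fibrillins such as FIB, and they store tocopherol and other prenyl lipids.

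The genes were chosen with their differences on these arrays already known. PSAN, LHCB4.1 and LHCB4.3 came from an earlier list of shoot markers, PORB from its difference at 240 min and FIB from its difference over all times. All levels and differences below are therefore descriptions and carry no test. Values are RMA values on the log2 scale, and a difference of 1 is 2-fold. The array medians lay between 5.12 and 5.14, and values near 4 to 5 are at the floor of the scale, where differences are compressed. As a yardstick for single arrays, the level-matched air SD gives the SD of the difference between the 240 and 0 min air arrays over the 100 probe sets of most similar level. It holds array error and any change during 240 min in air together. Over all 8247 probe sets the SD of the air pair difference was 0.22. For hypoxia minus air it was 0.50 at 30 min, 0.36 at 60 min and 0.62 at 240 min. The yardstick thus comes from the comparison with the smallest spread, and passing it does not set a gene apart from other probe sets.

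**Figure D1:**
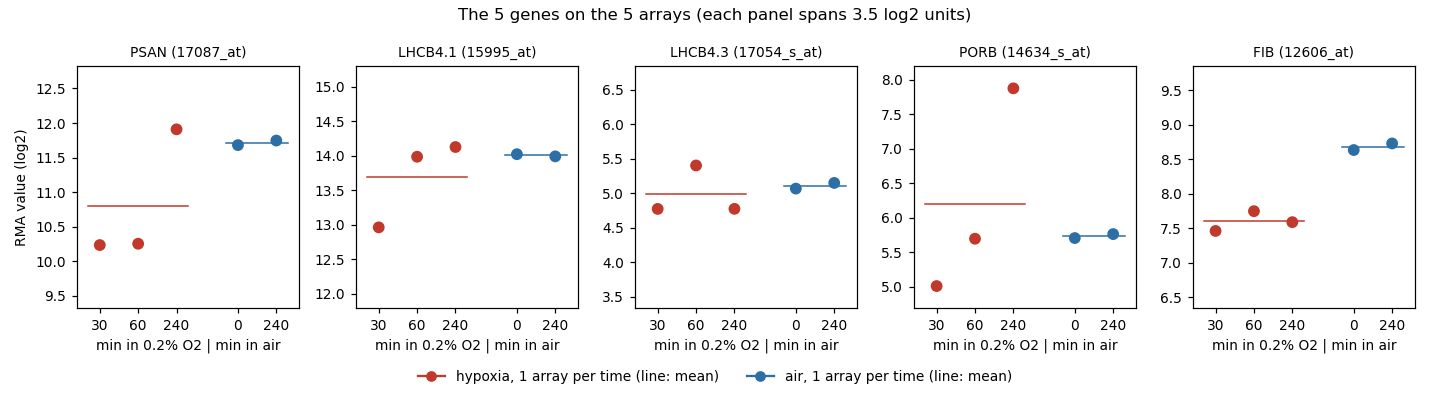
RMA value (log2 scale) of the 5 genes on each array, with the hypoxic arrays (30, 60 and 240 min) left of the air arrays (0 and 240 min); each point is 1 array and each line a group mean. FIB is the gene whose 3 hypoxic points, 7.46 to 7.75, all lie below both air points, 8.63 and 8.73, while PORB stands out on the 240 min hypoxic array at 7.87.

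PSAN encodes subunit N of photosystem I, a small protein on the lumen side of the complex that takes part in the transfer of electrons from plastocyanin. Its probe set, 17087_at, read 10.23, 10.25 and 11.91 after 30, 60 and 240 min of hypoxia, compared with 11.68 and 11.75 on the air arrays (0 and 240 min). The first 2 hypoxic arrays lay well below both air arrays and nearly level with each other, and the last lay slightly above both. The difference from 0 min air was −1.45 at 30 min and −1.43 at 60 min, or 2.73-fold and 2.69-fold lower, and at 240 min the difference from time-matched air was 0.16. The level-matched air SD was 0.26, which the differences at 30 and 60 min exceed several times over and the one at 240 min does not. Over all probe sets the differences had an SD of 0.50 at 30 min and 0.36 at 60 min. Among the 5 genes, PSAN alone was lower by 1 or more at 60 min.

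LHCB4.1 encodes CP29, a minor antenna protein that links the main light-harvesting complex to the photosystem II core. It read 12.96, 13.99 and 14.13 at 30, 60 and 240 min of hypoxia, compared with 14.02 and 13.99 on the air arrays (0 and 240 min), on probe set 15995_at. Only the 30 min array stood apart, at −1.06 from 0 min air, or 2.08-fold lower. At 60 and 240 min the differences were −0.04 and 0.14, both smaller than the level-matched air SD of 0.23. LHCB4.1 is among the 100 brightest probe sets, whose median difference at 30 min was −0.66, with 71 of the 100 below 0. After a repeated quantile normalization its difference at 30 min was −0.61, and after subtracting the median of the 100 probe sets of similar level, an alternative chosen after the values had been seen, it was −0.40. The 100 include 9 probe sets of the photosynthesis lists described below, so this median is not independent of them.

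LHCB4.3 encodes a divergent form of CP29. Its probe set, 17054_s_at, read 4.77, 5.40 and 4.77 under hypoxia at 30, 60 and 240 min, compared with 5.07 and 5.15 on the air arrays (0 and 240 min). All 5 values lie close to the array medians and near the floor. LHCB4.3 thus differed from air by −0.29 at 30 min, by 0.34 at 60 min and by −0.38 at 240 min, beside a level-matched air SD of 0.26. At 30 min neither array reached the array median, so LHCB4.3 was left out of the count at that time, whereas all 5 genes were at the level required at 60 and 240 min. The suffix _s_at, which the probe sets of LHCB4.3 and PORB carry, marks probes that can match more than 1 transcript, so related transcripts may share in these values.

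PORB encodes protochlorophyllide oxidoreductase B, which uses light and NADPH to reduce protochlorophyllide to chlorophyllide. It read 5.01, 5.70 and 7.87 after 30, 60 and 240 min of hypoxia, compared with 5.71 and 5.76 on the air arrays (0 and 240 min), on probe set 14634_s_at. The 30 min array was the lowest, the 60 min array was level with air, and the 240 min array was far above all others. PORB differed by −0.70 at 30 min, −0.01 at 60 min and 2.11 at 240 min, the last being 4.32-fold higher than time-matched air. The level-matched air SD was 0.18. PORB had the widest range of the 5 genes over the 5 arrays, at 2.86, and the 30 min value lies near the floor, where a difference is compressed.

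The 240 min hypoxic array, on which the PORB difference rests, stands apart in other ways. Of the probe sets that read under 5.5 on both air arrays, 6.16% were higher by 1 or more on it than the mean of air, against 1.08% on the 30 min and 0.196% on the 60 min hypoxic array. Its 25S and 5S rRNA controls were higher than in 240 min air by 1.41 and 0.99. The mouse gene controls MurIL4, MurIL10, MurIL2 and MurFAS were higher by 1.33, 0.91, 0.82 and 0.27. Yeast gene controls differed by −0.10 to 0. The excess of its 3′ over its 5′ GAPDH control was 1.97, with −0.23 to 0.69 elsewhere. For ubiquitin that excess was 2.39, with 1.67 to 2.15 elsewhere. Near PORB in probe set number, 11 dim probe sets (within 3 of its number or of numbers 33 or 66 away, and under 5.5 on the other arrays) had a median difference at 240 min of −0.07, with a range of −0.44 to 0.16. The number is a stand-in for place on the array, and whether it tracks that place was not checked. The parts of RNA quality and of these other differences of the array in the PORB value were not tested.

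FIB encodes fibrillin 1a, also called a plastoglobulin, a structural protein of the plastoglobule surface. Probe set 12606_at read 7.46, 7.75 and 7.59 at 30, 60 and 240 min of hypoxia, compared with 8.63 and 8.73 on the air arrays (0 and 240 min). The groups did not overlap, and the lowest air value exceeded the highest hypoxic value. FIB differed by −1.17 at 30 min, by −0.89 at 60 min and by −1.14 at 240 min, or 2.25-fold, 1.85-fold and 2.2-fold lower, beside a level-matched air SD of 0.30. Relative to the average of the air pair, FIB differed by −1.22, −0.93 and −1.09 at the 3 times. The 3 hypoxic values had an SD of 0.14, the smallest of the 5 genes. FIB was taken from its difference over all times, a choice that can favour a small spread, so nothing is read from this SD.

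Over all times, hypoxia minus air was −1.08 ± 0.12 for FIB (limma, SE, n = 3 hypoxic against 2 air arrays). It was −0.92 ± 0.60 for PSAN, −0.32 ± 0.40 for LHCB4.1, −0.13 ± 0.24 for LHCB4.3 and 0.46 ± 0.92 for PORB. The times serve as replicates in that fit, so the SE also holds the change with time. With the 240 min hypoxic array left out, PORB was at −0.38 and PSAN at −1.47, and with the 30 min array left out LHCB4.1 was at 0.05 and PORB at 1.05. Without the 60 min array the PORB estimate was 0.71 and that of LHCB4.3 −0.33. FIB, which was taken from this comparison, ranged from −1.16 to −1.01 as each array was left out in turn. By limma, 0 of 8247 probe sets (0%) had an adjusted p under 0.05, and 161 (1.95%) had an unadjusted p under 0.05, 46 higher and 115 lower. Every hypoxic array lay below both air arrays for 1 of the 5 genes, FIB, and for 8.16% of all probe sets, and above both for 0 of the 5 genes and for 5.2% of all. Since FIB was taken from this comparison, nothing is read from that count.

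In the air pair, the 5 genes differed little between 240 and 0 min. The differences were 0.07 for PSAN, −0.03 for LHCB4.1, 0.08 for LHCB4.3, 0.06 for PORB and 0.10 for FIB, each under its level-matched air SD. None was past a difference of 1, beside 0.338% of 4432 probe sets higher and 0.226% lower by as much.

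Counted at a difference of 1 or more, 3 of the 4 genes at the level required were lower at 30 min (PSAN, LHCB4.1 and FIB) and 0 were higher. Of all 4546 probe sets at that level, 5.32% were lower and 5.21% higher by as much. At 60 min 1 of 5 genes was lower (PSAN) and 0 were higher, against 2.26% lower and 2.37% higher of 4465 probe sets. At 240 min 1 was higher (PORB) and 1 lower (FIB), against 9.71% higher and 3.53% lower of 4676. The comparisons at 30 and 60 min share the 0 min air array. The genes were chosen with these differences known, so the counts describe them only.

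The wider pathway was described through 8 lists of 157 genes, covering the photosystems and their antennae, thylakoid electron transport, light-harvesting-like proteins, chlorophyll synthesis and breakdown, plastoglobules, and regulators of plastid genes. Named probe sets measured 20 of these genes, the 5 included, and 0 of the lists of chlorophyll breakdown and of regulators. By limma, 0 of the 20 passed in either direction.

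**Figure D2:**
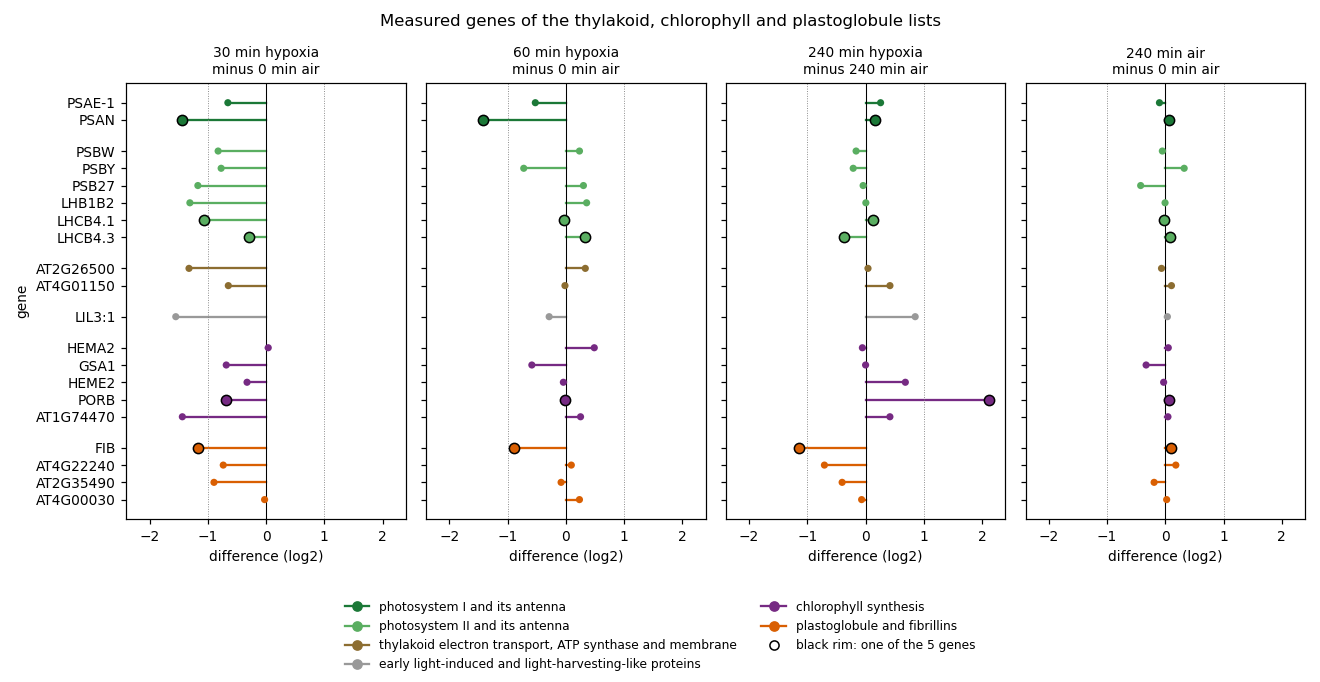
Difference (log2) of each of the 20 measured list genes in the 4 single-array comparisons, coloured by list, with black rims for the 5 genes and dotted lines at −1 and 1. At 30 min 19 of 20 genes lie below 0, at 60 and 240 min they lie on both sides, and in air all lie between −0.42 and 0.32.

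At 30 min 19 of the 20 list genes were below 0 min air, with a median difference of −0.80, beside a median of 0 and 49.6% below 0 over all 8247 probe sets. Of the 18 at the level required, 8 were lower by 1 or more and 0 higher, beside 5.32% lower and 5.21% higher over all probe sets at that level. Without the 5 genes, 14 of 15 were below 0, with a median of −0.77. LIL3:1, which encodes a light-harvesting-like protein that anchors geranylgeranyl reductase, was at −1.55, and AT1G74470, geranylgeranyl reductase itself, the enzyme of the phytol tail, was at −1.44. LHB1B2, a main light-harvesting protein of photosystem II also named LHCB1.5, was at −1.31, and PSB27, an assembly factor of photosystem II, at −1.17. A dimmer LHB1B2 probe set, 12738_r_at, was at −0.78. The probe sets used for LHB1B2, LIL3:1, PSAE-1, PSBY, HEMA2 and AT4G01150 carry the suffix _s_at, so related transcripts may share in their values. HEMA2, a glutamyl-tRNA reductase gene near the floor, was at 0.04, and AT4G00030 of the plastoglobule list was at −0.02. With the median of probe sets of similar level subtracted, an alternative chosen after the values had been seen, 5 list genes were lower by 1 or more in place of 8. Over all 4546 probe sets at that level, it left 4.42% lower and 5.54% higher.

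**Figure D3:**
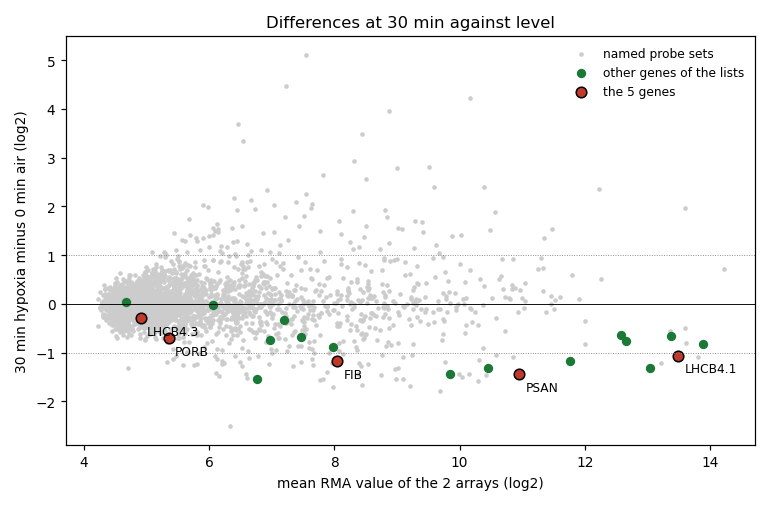
Difference between 30 min hypoxia and 0 min air (log2) against the mean of both arrays (log2) for every named probe set (grey), the other list genes (green) and the 5 genes (red). The list genes span levels from 4.67 for HEMA2 to 13.88 for PSBW, and 19 of the 20 lie below 0.

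The 30 min array also differed in its control probe sets. The non-plant controls named BioB, BioC, BioDn and CreX differed from 0 min air by −0.09 to 0.75, and those for mouse and yeast genes by −0.48 to −0.002. GAPDH and ubiquitin controls exceeded those of 0 min air by 1.51 to 1.78, while actin differed by 0.18. The excess of the 3′ over the 5′ GAPDH control was 0.69 at 30 min, next to 0.57 in 0 min air. XTH26, the only measured gene of 45 root markers, read 5.08, 5.15 and 5.46 under hypoxia at 30, 60 and 240 min, compared with 4.98 and 5.09 on the air arrays (0 and 240 min), all near the floor. In whole seedlings, fewer green cells and less RNA per cell cannot be told apart, and the part of the shoot to root ratio in these differences was not tested.

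At 60 min the list genes lay on both sides of 0 min air. The median over the 20 was −0.01, with 11 below 0 and 9 above, beside a median of 0 and 47.5% below 0 over all probe sets. Of the 20, 1 was lower by 1 or more and 0 were higher, beside 2.26% lower and 2.37% higher over all probe sets at that level. PSAN at −1.43 was the lowest, followed by FIB at −0.89 and PSBY, a small subunit of photosystem II, at −0.72. GSA1, which makes the chlorophyll precursor 5-aminolevulinate, was at −0.58 and PSAE-1, a stromal subunit of photosystem I, at −0.52. Both measured photosystem I genes were therefore below 0 min air at 30 and at 60 min, and the other probe sets of PSAE-1 were at −0.53 and −1.40 at 60 min. The antenna and photosystem II genes LHB1B2 at 0.36, PSB27 at 0.30 and PSBW at 0.23 were above 0, as was HEMA2 at 0.49.

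By 240 min the list genes again lay on both sides of air. Their median difference from time-matched air was 0.0023, with 10 above 0 and 9 below, beside −0.02 and 54.6% below 0 over all probe sets. The chlorophyll synthesis genes included PORB at 2.11, HEME2, a uroporphyrinogen decarboxylase, at 0.68 and AT1G74470 at 0.42, while GSA1 was at 0 and HEMA2 at −0.06. LIL3:1 was at 0.85. All 4 measured genes of the plastoglobule list were below 0. FIB was at −1.14, AT4G22240, fibrillin 1b, at −0.71, AT2G35490 at −0.40 and AT4G00030 at −0.07. Of the 19 list genes at the level required, 1 was higher by 1 or more (PORB) and 1 lower (FIB), beside 9.71% higher and 3.53% lower over all probe sets at that level. Both photosystem I genes were above 0, PSAE-1 at 0.26 and PSAN at 0.16.

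The fibrillin 1b gene AT4G22240 read 6.60, 7.43 and 6.81 at 30, 60 and 240 min of hypoxia, compared with 7.34 and 7.52 on the air arrays (0 and 240 min). Its 60 min value lay between both air values, whereas FIB was below air at that time too. AT2G35490 read 7.53, 8.34 and 7.83, against 8.42 and 8.23 in air, and its 60 min value likewise lay between those of air. These contrasts rest on 1 array per time and were not tested.

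Clock-related genes were looked up as well, since antenna genes are known to follow the circadian clock, and 2 of the 11 listed were measured. CCL differed by −1.55 at 30 min, 1.61 at 60 min and 1.92 at 240 min, and by 0.22 in air between 240 and 0 min. GI, at its brightest probe set, differed by −0.39, 0.64 and −0.17, and by 0.31 in air. Its dimmer probe sets were not below 0 min air at 30 min, unlike the brightest, and did not share one direction at 60 and 240 min. One differed by 0.17, 0.98 and 0.28, and by 0.49 in air, another by 0.06, 0.59 and −0.30, and by 0.17 in air. The dimmest, at the floor, differed by 0, −0.04 and −0.31, and by 0.28 in air. The 30 and 60 min arrays have no time-matched air array, and the part of time of day was not tested.

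**Figure D4:**
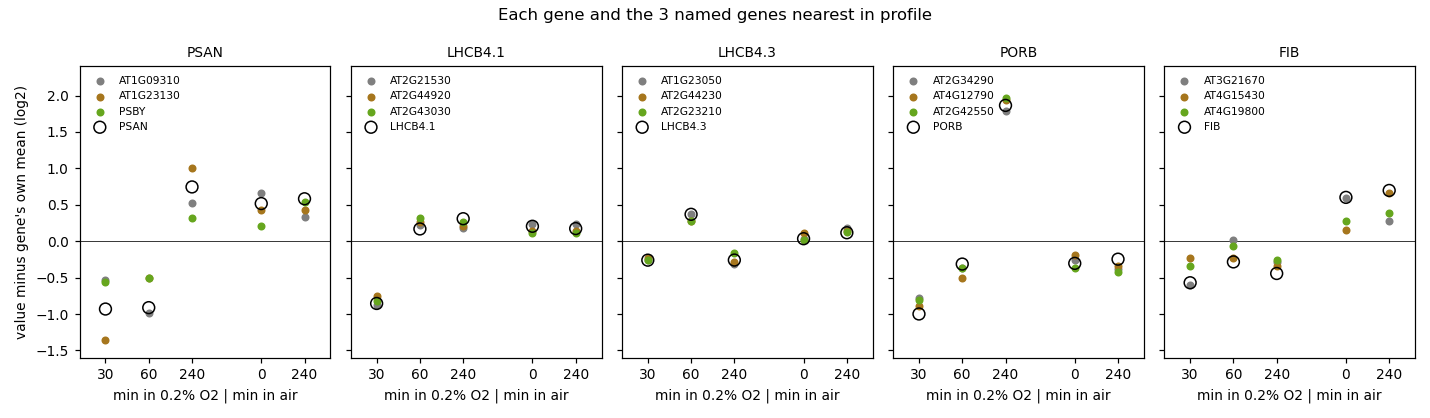
Values of each of the 5 genes (open circles) and of the 3 named genes nearest in profile (dots), each minus the gene's own mean over the 5 arrays (log2), hypoxic arrays left of air arrays. The dots lie closest to the circles for LHCB4.3 and LHCB4.1, at distances of 0.04 to 0.09, and furthest for PSAN and FIB, at 0.24 to 0.34.

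Named genes with the most similar pattern were found by the root mean square distance between values centred on each gene's own mean, over 5 arrays and 3587 candidate genes. All neighbours here and below were picked on these same values, so differences like those of the gene itself follow from the choice. Nearest to PSAN were AT1G09310 (distance 0.24), AT1G23130 (0.30) and PSBY (0.34), the last a thylakoid gene itself. AT1G09310 differed by −1.64 at 60 min and by 0.19 at 240 min. LHCB4.1 was closest to AT2G21530 (0.07), AT2G44920 (0.08) and AT2G43030 (0.09), which differed by −1.12, −0.90 and −0.94 at 30 min and between −0.06 and 0.20 at the later times. For LHCB4.3, AT1G23050, AT2G44230 and AT2G23210 lay at 0.04 to 0.06.

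The neighbours of PORB were AT2G34290 and AT4G12790 (both 0.12) and AT2G42550 (0.13), which differed at 240 min by 2.17, 2.28 and 2.38. All 3 read under 5.5 on the other 4 arrays. The dim probe sets near them in number had median differences at 240 min of 2.04, 1.55 and 1.28, whereas those near PORB had −0.07, with number again an unchecked stand-in for place. FIB was closest to AT3G21670 (0.24), AT4G15430 (0.26) and AT4G19800 (0.26). These were lower at every time of hypoxia, AT3G21670 at −1.19, −0.57 and −0.56 and the other two at −1.01 to −0.35. Among the 5 genes themselves the closest pair was LHCB4.1 and LHCB4.3 at 0.39 and the most distant was PORB and FIB at 1.2. The values were centred but not scaled, so these distances also depend on how widely each gene ranges. LHCB4.3, near the floor, had the smallest range of the 5 genes, 0.63. Both genes of the closest pair were below air at 30 min, but their later differences, small for LHCB4.1, had opposite signs. No shared pattern is therefore read from the distance of 0.39.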

How the data were processed

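The deposited table holds log2 values of 8297 probe sets on 5 arrays, which the authors made by RMA, according to the submitters' processing notes (software and version not stated there). RMA subtracts a background and normalizes arrays together, which compresses differences near the floor. The 50 control probe sets were set apart, leaving 8247. A platform annotation named 1 gene for 3794 probe sets, of which 3784 matched the TAIR10.1 gene table, used for names only.

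The test set hypoxia against air with limma 3.58.1 under R 4.3.3 (functions lmFit and eBayes, Benjamini-Hochberg over 8247 probe sets, threshold 0.05), tested on simulated data with known shifts. Single-array differences carry no test; a probe set was counted at 1 or more (log2) if either array reached its own median. The level-matched air SD is the SD of the 240 minus 0 min air differences over the 100 probe sets nearest in mean level.

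The 5 genes and all lists were chosen with earlier results of these data known. A gene with several probe sets was counted through the one with the highest mean. Named genes are the 5, the measured genes of the lists, and for each of the 5 the 3 genes nearest in profile. Alternatives were a repeated quantile normalization, median centring, array weights, an eBayes trend, other filters, thresholds and air references, and leaving out each array. Precision is limited by the number of arrays.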

Additional observations from a re-analysis of the deposited data

Results flagged for a closer look

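Of the 20 list genes, 11 were above air at 1 time of hypoxia and below it at another by more than their level-matched air SD in comparisons of single arrays. By the same measure 20.2% of all 8247 probe sets did so, and 27.3% of the 5349 that reached the median level on at least 1 array. PSBW passed narrowly, at 0.23 at 60 min with an SD of 0.23, as did PSAE-1, at 0.26 at 240 min with an SD of 0.23. This change of direction between times was not tested. The widest gap between the highest and the lowest of the 3 differences was 2.81 for PORB, at 2.11 at 240 min and −0.70 at 30 min. LIL3:1 followed at 2.4 and AT1G74470 at 1.85, each highest at 240 min and lowest at 30 min, as were HEME2 at 1.01, AT4G01150, the thylakoid curvature protein CURT1A, at 1.07 and PSAE-1 at 0.91. LHB1B2 and AT2G26500, both with a gap of 1.66, PSB27 with 1.47 and PSBW with 1.06 were highest at 60 min and lowest at 30 min. The other PSBW probe set differed by −0.55, 0.22 and 0.27 at 30, 60 and 240 min, so it was highest at 240 min. The PSAE-1 probe set 18089_r_at was lowest at 60 min, at −1.40, and stood at −0.84 at 30 min. LHCB4.3 spanned 0.71, highest at 60 min and lowest at 240 min, near the floor of the scale.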

How the results depend on the processing

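Differences are on 1 array per treatment and time, so no replicate error attaches to them. No paired analysis was possible because only 240 min has both a hypoxic and an air array, and the labels give no replicate numbers. In hypoxia against air, 0 probe sets passed under every alternative of the limma fit, and 82 to 410 had an unadjusted p under 0.05. As each array was left out in turn, hypoxia minus air ran from −1.47 to −0.63 for PSAN, from −0.53 to 0.05 for LHCB4.1, from −0.33 to −0.02 for LHCB4.3 and from −0.38 to 1.05 for PORB. With a threshold of 1.5, which by construction counts fewer, the genes lower at 30 min were 0 of the 5 and 1 of the 20 list genes. Those lower at 60 and at 240 min were 0, and PORB was still higher at 240 min. Over all probe sets at the level required, 65 of 4546 were lower by 1.5 or more at 30 min and 28 of 4465 at 60 min. At 240 min 62 of 4676 were lower and 283 higher by as much. Subtracting the median of probe sets of similar level left 5 list genes lower by 1 or more at 30 min, and 2 of the 5, beside 4.42% of 4546 probe sets. LHCB4.1 at 30 min moved to −0.61 with repeated quantile normalization and to −0.40 with level-matched centring. The other single-array differences of the 5 genes moved by less than their level-matched air SD. Each gene has 1 probe set, so another could not be used.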
